A study of Mus musculus with 6 samples.

Results

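The 34 genes described here encode the enzymes and carriers of mitochondrial fatty acid oxidation, together with the acyl-CoA synthetases that feed the pathway and the thioesterases that draw from it. They were given as a list of symbols and matched to the Ensembl identifiers of the tables, where all 34 were found among 45320 genes. All 34 also reached a mean of 1 FPKM (sequenced fragments scaled by transcript length and library size) over the libraries, the level required for a test. RNA was sequenced from whole brown adipose tissue. The C57BL/6 mice were put on a high-sugar, high-fat diet at 4 weeks of age and stayed on it for 4 weeks, after which the groups were formed. The treated group (samples 17, 33 and 35) then received RO5508887 in addition to the diet. RO5508887 is an experimental small molecule that inhibits BACE1, the protease known from amyloid formation. The untreated group stayed on the diet alone (samples 13, 14 and 15). Every mouse therefore carried the diet, and no group on ordinary chow was analysed here. The labels do not give the dose, the length of treatment, the sex of the mice or whether each sample was a separate animal, and p-values therefore describe the spread between these samples alone, which may be technical.

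Brown adipose tissue burns fatty acids to make heat through the uncoupling protein UCP1. A long-chain fatty acid is first bound to coenzyme A by an acyl-CoA synthetase, and carnitine palmitoyltransferase 1 on the outer mitochondrial membrane then exchanges the coenzyme A for carnitine. A carrier in the inner membrane brings the acylcarnitine into the matrix, where carnitine palmitoyltransferase 2 restores the acyl-CoA. Each turn of beta-oxidation then oxidises, hydrates, oxidises again and cleaves the chain, and electrons from the first step pass through the electron transfer flavoprotein to the respiratory chain.

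The tables of treated 33 and treated 35 were identical in all 45320 values. They thus differed by less than any sampling noise, and counted as 1 library, treated 33/35, which leaves 2 treated and 3 untreated libraries. Relative to untreated 13, the sequencing depth read from the spacing of low values was 1.01 in treated 17, 0.960 in treated 33/35, 0.811 in untreated 14 and 0.881 in untreated 15, and the read totals were unknown. The labelled tissue was checked on 21 adipocyte markers, which reached 1 FPKM in all libraries except for 1 marker in untreated 14. Their sum was 2.17% and 2.55% of all FPKM outside mitochondrially encoded genes in treated 17 and treated 33/35, against 2.69%, 1.21% and 2.69% in untreated 13, 14 and 15. A list of 32 skeletal muscle markers summed to 3.48% and 1.497% in the treated libraries, against 0.0342%, 8.74% and 0.0330% in the untreated ones. Ckm, the muscle creatine kinase, illustrates this, with 1262 and 531 FPKM under the drug, against 2.25, 2733 and 1.46 FPKM in untreated 13, 14 and 15. Liver markers summed to at most 8.88 FPKM (untreated 13) and heart markers to at most 29.1 FPKM (untreated 14).

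Fatty acid oxidation transcripts were abundant in each library and lowest in untreated 14. The 34 genes summed to 12418 and 14245 FPKM in treated 17 and treated 33/35, against 15094, 5606 and 15933 FPKM in untreated 13, 14 and 15. This was 2.52% and 2.84% of all FPKM outside mitochondrially encoded genes in the treated libraries, against 2.90%, 1.15% and 3.17% in the untreated ones. Both treated libraries thus lay above untreated 14 and below untreated 13 and 15. In whole tissue, fewer adipocytes and less of these RNAs per adipocyte cannot be told apart.

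The low values of untreated 14 ran through most of the pathway. On the log2(FPKM + 0.5) scale, the median of the 34 genes relative to each gene's mean over the 5 libraries was 0.06 in treated 17 and 0.24 in treated 33/35, against 0.31, -0.97 and 0.41 in untreated 13, 14 and 15. Over all 13527 tested genes the same median stayed between -0.07 (untreated 14) and 0.07 (treated 33/35). For the adipocyte markers it was 0.02 and 0.27 in the treated libraries and 0.38, -1.08 and 0.36 in the untreated ones, and for the muscle markers 2.88 and 1.81, against -4.75, 4.51 and -4.83. Untreated 14 was therefore low in adipocyte and fatty acid oxidation genes and high in muscle genes, and the part of muscle tissue in these levels was not tested.

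**Figure D1:**
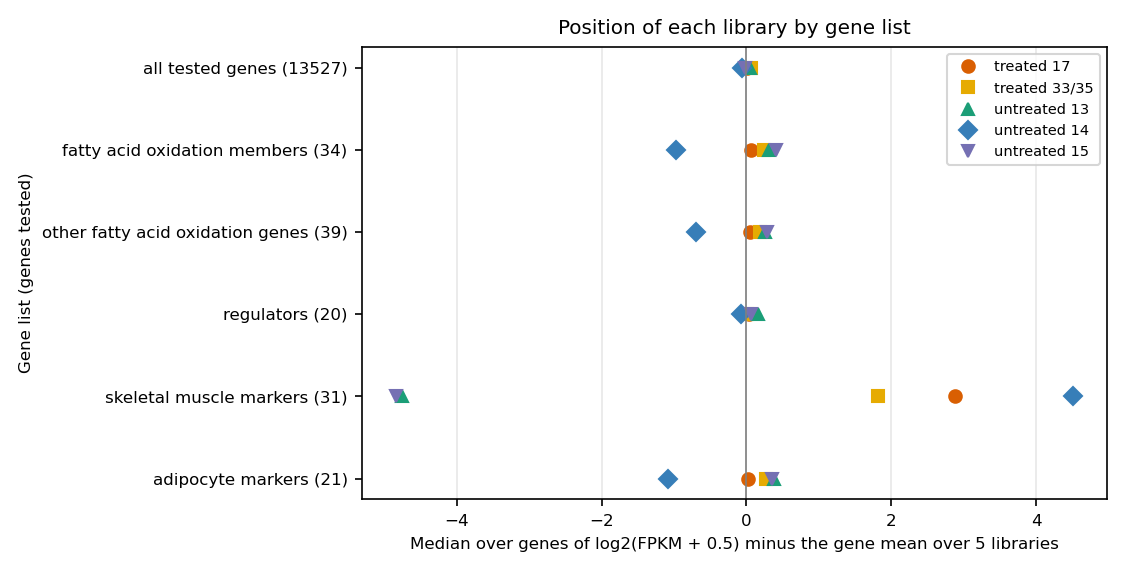
Position of the 5 libraries for 6 sets of genes. The horizontal axis is the median over the genes of a set of log2(FPKM + 0.5) minus the gene's mean over the libraries, each symbol is a library, and the number of genes tested stands beside each set. The fatty acid oxidation genes sit at -0.97 in untreated 14 and between 0.06 and 0.41 in the other libraries, close to the adipocyte markers, whereas the muscle markers run from -4.83 to 4.51.

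Of the 34 genes, 28 had their lowest value in untreated 14, as did 43.6% of all tested genes, and 21 had their highest value in untreated 15, as did 16.5% of tested genes. The exceptions to the first pattern were Acsl3, Acsl4, Acsl6, Cpt1a, Mlycd and Acot1. The ratio of the highest to the lowest library had a median of 2.93 over the 34 genes and 1.71 over all tested genes. It was under 2 for 7 members, from 2 to 4 for 23, and at least 4 for Acad10, Acsl5, Acot11 and Acsl6.

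**Figure D2:**
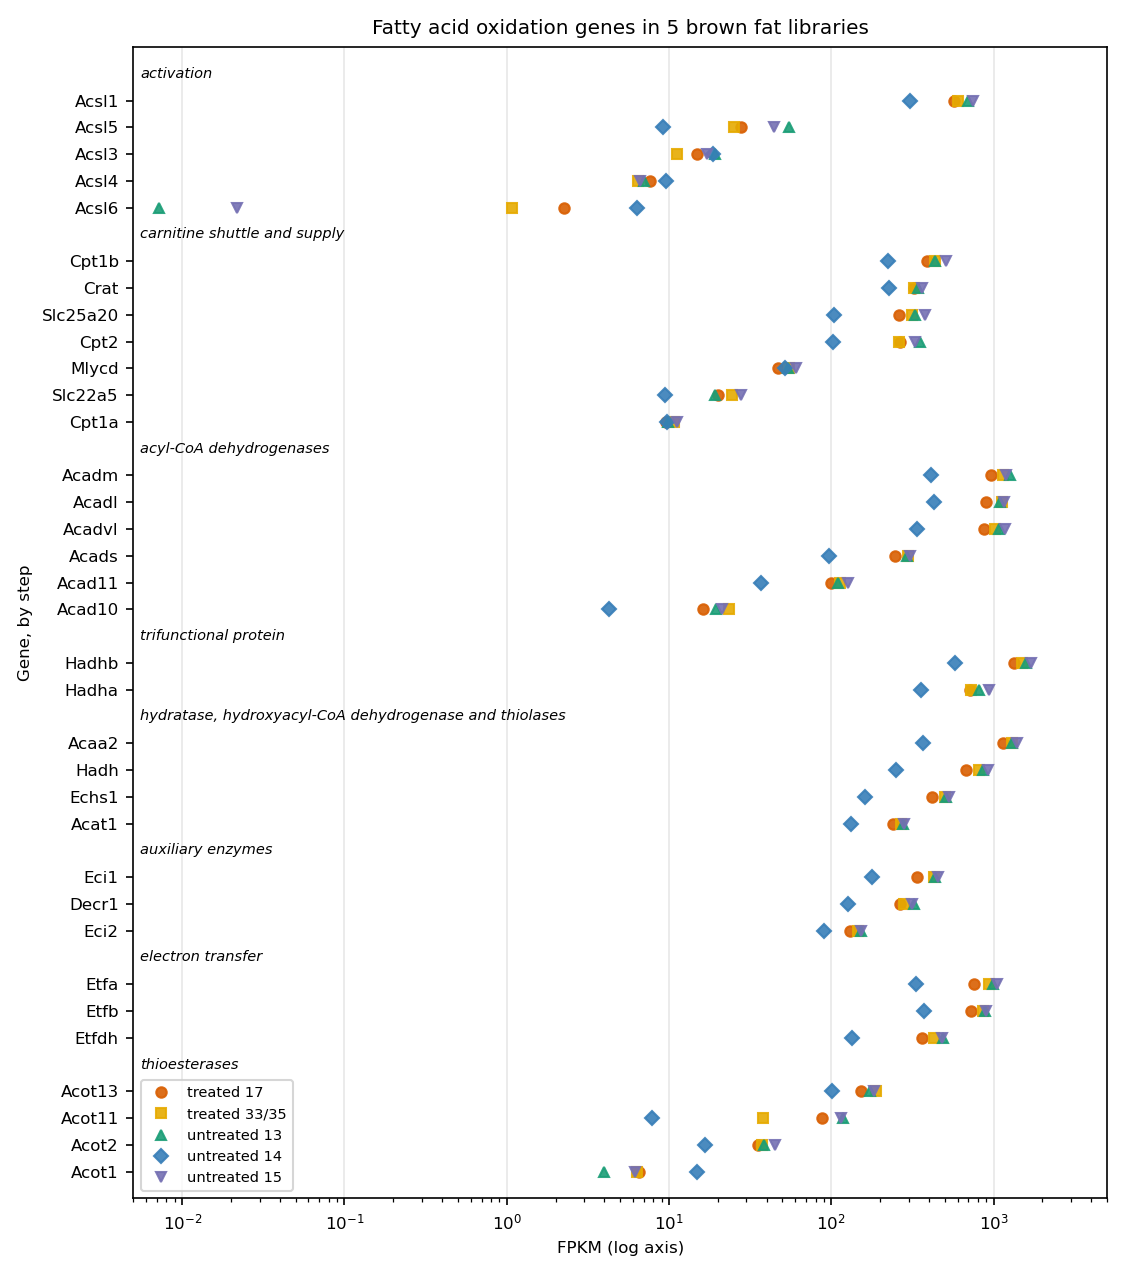
FPKM of the 34 genes in the 5 libraries, by step of the pathway and, within a step, by mean level. The horizontal axis is logarithmic and each symbol is a library. Untreated 14 (blue diamonds) is the lowest library for 28 genes. Cpt1a and Mlycd hardly spread, and Acsl6 runs from 0.00716 to 6.34 FPKM.

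Long-chain acyl-CoA synthetases make the acyl-CoA that enters the pathway, and Acsl1 supplied most of their transcripts. Acsl1, the main isoform of fat and heart (chromosome 8, 46471037 to 46536051, GRCm38), measured 574 and 601 FPKM in the treated libraries, against 694, 307 and 746 FPKM in untreated 13, 14 and 15. The treated values lay inside the untreated range, with means of 587 ± 18.7 FPKM (SD, n = 2) in treated and 582 ± 239.7 FPKM (SD, n = 3) in untreated tissue and a log2 fold change of 0.12 ± 0.45 (SE; adjusted p = 1 by limma). Acsl5, an isoform of mitochondria and endoplasmic reticulum, measured 27.6 and 25.3 FPKM with the drug, against 54.8, 9.20 and 44.6 FPKM without it. The treated values were close to each other, under those of untreated 13 and 15 and above that of untreated 14.

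Acsl3, which serves lipid droplet formation, was the only member whose groups did not overlap. It measured 14.9 and 11.2 FPKM in treated 17 and treated 33/35, against 19.2, 18.7 and 17.1 FPKM in untreated 13, 14 and 15. Both treated values lay below every untreated value, including untreated 14. The means were 13.0 ± 2.58 FPKM (SD, n = 2) in treated and 18.3 ± 1.12 FPKM (SD, n = 3) in untreated tissue, a log2 fold change of -0.49 (SE 0.18) with a limma p of 0.0452 that did not survive adjustment over all genes (limma adjusted p = 1). Of all tested genes, 3.18% lay below in both treated libraries and 5.5% lay above in both, so 1 of 34 members below and 0 above is near or under the background. Acsl4, which prefers arachidonic acid, measured 7.58 and 6.43 FPKM in the treated libraries, against 7.02, 9.53 and 6.65 FPKM in the untreated ones, with overlapping groups.

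Acsl6, an isoform known from brain and muscle, varied most of all members. It measured 2.25 and 1.08 FPKM in treated 17 and treated 33/35, against 0.00716, 6.34 and 0.0216 FPKM in untreated 13, 14 and 15. Its order over untreated 14, treated 17 and treated 33/35 was that of Ckm. Its log2 fold change was 0.78 ± 1.32 (SE; adjusted p = 1 by limma). Gm12224, annotated antisense to Acsl6 with 202 shared exon bases, measured 13.0 and 3.98 FPKM in the treated libraries, against 0 (listed), 25.9 and 0 (listed) FPKM in the untreated ones. The strand used in counting was not given in the sources used here, so reads of the 2 genes may have been mixed. The window around a start site of Acsl6, from 250 bases before to 50 after it, is shown because it was the only member window with the extended half-site TNAAGGTCA of the oestrogen-related receptors. It lies at chr11:54303574-54303873 on the plus strand (RefSeq, GRCm38.p6), and the capitals mark the match, which starts 167 bases before the start site and reads on the opposite strand.
Acsl6: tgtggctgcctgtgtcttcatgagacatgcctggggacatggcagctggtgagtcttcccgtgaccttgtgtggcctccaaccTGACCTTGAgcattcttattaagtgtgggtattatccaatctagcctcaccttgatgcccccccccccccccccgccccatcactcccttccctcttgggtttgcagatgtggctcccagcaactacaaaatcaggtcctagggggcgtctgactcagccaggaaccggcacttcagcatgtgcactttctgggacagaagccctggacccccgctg
The motif was searched on both strands in 32 windows of 28 members and occurred in 1.28% of all 32851 windows in the table. Acsl6 has 2 further windows without it.

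The carnitine shuttle was lowest in untreated 14 at its brown fat isoform, its carrier and its matrix enzyme. Cpt1b, the muscle and brown fat isoform of carnitine palmitoyltransferase 1 (chromosome 15, 89416405 to 89425863), measured 387 and 436 FPKM in the treated libraries, against 436, 222 and 508 FPKM in untreated 13, 14 and 15. The groups overlapped, with means of 412 ± 34.2 FPKM (SD, n = 2) in treated and 389 ± 149 FPKM (SD, n = 3) in untreated tissue and a log2 fold change of 0.16 ± 0.41 (SE; adjusted p = 1 by limma). Slc25a20, the carnitine-acylcarnitine carrier, measured 262 and 316 FPKM with the drug, against 326, 104 and 381 FPKM without it. Cpt2, the matrix transferase, measured 265 and 263 FPKM with the drug, against 352, 103 and 326 FPKM without it. Both genes were again higher in the treated libraries than in untreated 14 and lower than in untreated 13 and 15. Annotated exons of Cpt1b are shared with Gm44502, a transcript of the same strand, over 81.4% of their bases. No FPKM was given for Gm44502.

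Cpt1a, the liver isoform of the same enzyme, varied least of all members. It measured 9.53 and 10.7 FPKM in the treated libraries, against 9.91, 9.67 and 11.2 FPKM in the untreated ones. The highest library exceeded the lowest 1.17-fold, with a log2 fold change of -0.02 ± 0.15 (SE; adjusted p = 1 by limma). Cpt1b thus stood 40.7-fold and 40.8-fold above Cpt1a in the treated libraries, against 44.0-fold, 23.0-fold and 45.5-fold in the untreated ones, on the FPKM scale, which accounts for transcript length.

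The genes that set the supply of carnitine and malonyl-CoA differed in how far they followed. Slc22a5, the plasma membrane carnitine transporter OCTN2, measured 20.1 and 24.4 FPKM in the treated libraries, against 19.3, 9.44 and 27.6 FPKM in the untreated ones. It was among the 4 members of smallest p, with a log2 fold change of 0.36 ± 0.48 (SE; adjusted p = 1 by limma), and its groups overlapped. Crat, the carnitine acetyltransferase, measured 322 and 325 FPKM with the drug, against 344, 228 and 360.2 FPKM without it. Mlycd, which breaks down malonyl-CoA, the inhibitor of carnitine palmitoyltransferase 1, varied little. It measured 46.7 and 54.6 FPKM with the drug, against 53.7, 52.0 and 60.4 FPKM without it, a log2 fold change of -0.13 ± 0.17 (SE; adjusted p = 1 by limma).

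The acyl-CoA dehydrogenases of the first oxidation were among the most abundant nuclear transcripts of the tissue. Acadm, the medium-chain enzyme (chromosome 3, 153922357 to 153944632), measured 969 and 1136 FPKM in the treated libraries, against 1260.4, 414 and 1199.6 FPKM in untreated 13, 14 and 15. It ranked 42nd and 28th among nuclear genes in the treated libraries, against 31st, 156th and 35th in the untreated ones. Its means were 1053 ± 118 FPKM (SD, n = 2) in treated and 958 ± 472 FPKM (SD, n = 3) in untreated tissue, a log2 fold change of 0.29 ± 0.57 (SE; adjusted p = 1 by limma). Acadl, the long-chain enzyme, measured 903 and 1119.6 FPKM with the drug, against 1097, 429 and 1163 FPKM without it, and Acadvl, the very-long-chain enzyme of the inner membrane, 873 and 1025 FPKM against 1074, 338 and 1178 FPKM. Within each library these 3 genes had similar levels. Exons of Acadvl share 42.9% of their bases with exons of Dvl2 on the opposite strand, whose own values were 3.27 to 4.63 FPKM.

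The short-chain and less common dehydrogenases were lower. Acads, for short chains, measured 247 and 298 FPKM in the treated libraries, against 291, 96.4 and 304 FPKM in the untreated ones. Acad11, for very long chains, measured 99.6 and 114 FPKM with the drug, against 110.3, 36.8 and 127 FPKM without it. Acad10 was the least abundant, with 16.1 and 23.4 FPKM with the drug, against 19.6, 4.28 and 21.3 FPKM without it. Acad10 had the largest positive fold change among the 4 members of smallest p, 0.64 ± 0.76 on the log2 scale (SE; adjusted p = 1 by limma), although both treated values lay close to those of untreated 13 and 15. The ratio of Acads to Acadm was 0.254 and 0.262 in the treated libraries, against 0.231, 0.233 and 0.253 in the untreated ones, so that the groups did not overlap, by a narrow margin (exact two-sided permutation p = 0.2, adjusted p = 1 over 14 pairs).

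Trifunctional protein carries out the later reactions on long chains, and its beta subunit was the most abundant of the 34 genes. Hadhb (chromosome 5, 30155248 to 30184593) measured 1329.6 and 1499.7 FPKM in treated 17 and treated 33/35, against 1575, 575 and 1692 FPKM in untreated 13, 14 and 15. It ranked 25th and 17th among nuclear genes in the treated libraries, against 21st, 85th and 17th in the untreated ones. The groups overlapped, with means of 1415 ± 120.3 FPKM (SD, n = 2) in treated and 1280.4 ± 614 FPKM (SD, n = 3) in untreated tissue and a log2 fold change of 0.29 ± 0.55 (SE; adjusted p = 1 by limma). Hadha, the alpha subunit with hydratase and dehydrogenase activity (chromosome 5, 30118304 to 30155162), measured 712 and 725 FPKM with the drug, against 812, 355 and 934 FPKM without it. The beta subunit was 1.87-fold and 2.07-fold above the alpha subunit in the treated libraries, against 1.94-fold, 1.62-fold and 1.81-fold in the untreated ones (exact two-sided permutation p = 0.4, adjusted p = 1).

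Hadha and Hadhb lie head to head, and their start sites in RefSeq are 273 bases apart. The stretch shared by their promoter windows is shown because it lies between both RefSeq start sites, from which the subunits are read in opposite directions. By the GENCODE coordinates given above, part of this stretch lies within Hadha. The stretch covers 228 bases at chr5:30155003-30155230, plus strand, and the capitals mark the GC box GGGCGG. That box was found on either strand in 35.7% of all windows and in 23 of the 32 member windows.
Hadha and Hadhb: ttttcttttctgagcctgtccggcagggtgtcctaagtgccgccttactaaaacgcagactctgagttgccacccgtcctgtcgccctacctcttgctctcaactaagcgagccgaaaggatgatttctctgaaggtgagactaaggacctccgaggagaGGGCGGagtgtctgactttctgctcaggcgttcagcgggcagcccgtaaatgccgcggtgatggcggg
In the 5 libraries above, both subunits were lowest in untreated 14 and highest in untreated 15. The same held for other members, among them Acsl1, Cpt1b, Acadvl, Acaa2 and Etfa, so it was not particular to this pair.

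The remaining enzymes of the cycle had some of the largest gaps between untreated 14 and the other libraries. Acaa2, the matrix thiolase, measured 1137 and 1298 FPKM in the treated libraries, against 1290.0, 365 and 1397 FPKM in untreated 13, 14 and 15. Its means were 1217 ± 114 FPKM (SD, n = 2) in treated and 1018 ± 567 FPKM (SD, n = 3) in untreated tissue, a log2 fold change of 0.48 ± 0.67 (SE; adjusted p = 1 by limma). Hadh, the short-chain hydroxyacyl-CoA dehydrogenase, measured 680 and 815 FPKM with the drug, against 863, 250.1 and 923 FPKM without it. Echs1, the short-chain hydratase, measured 417 and 503 FPKM with the drug, against 512, 162 and 535 FPKM without it. The highest library exceeded the lowest 3.82-fold for Acaa2, 3.69-fold for Hadh and 3.31-fold for Echs1. Acat1, the acetoacetyl-CoA thiolase that also serves ketone bodies, varied less, with 239 and 268 FPKM in the treated libraries, against 276, 132 and 280.3 FPKM in the untreated ones.

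Auxiliary enzymes make unsaturated chains fit for the cycle. Eci1, an enoyl-CoA isomerase (chromosome 17, 24426641 to 24439348), measured 339.7 and 427 FPKM in the treated libraries, against 434, 178 and 456 FPKM in the untreated ones. Its means were 383 ± 61.9 FPKM (SD, n = 2) in treated and 356 ± 155 FPKM (SD, n = 3) in untreated tissue, a log2 fold change of 0.22 ± 0.49 (SE; adjusted p = 1 by limma). Decr1, the dienoyl-CoA reductase, measured 264 and 280.3 FPKM with the drug, against 324, 126 and 312 FPKM without it. Eci2, an isomerase of mitochondria and peroxisomes, measured 130.2 and 146 FPKM with the drug, against 153, 90.5 and 152 FPKM without it. Its ratio to Eci1 was 0.383 and 0.342 in the treated libraries, against 0.352, 0.510 and 0.334 in the untreated ones, and was highest in untreated 14.

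Electron transfer genes showed the pattern of the dehydrogenases they serve. Etfa, the alpha subunit of the electron transfer flavoprotein (chromosome 9, 55454508 to 55512243), measured 756 and 932 FPKM in the treated libraries, against 985, 332 and 1044 FPKM in untreated 13, 14 and 15. Its means were 844 ± 125 FPKM (SD, n = 2) in treated and 787 ± 395 FPKM (SD, n = 3) in untreated tissue, a log2 fold change of 0.26 ± 0.58 (SE; adjusted p = 1 by limma). Etfb, the beta subunit, measured 727 and 862 FPKM with the drug, against 883, 370.5 and 899.5 FPKM without it. The ratio of beta to alpha subunit stayed near equality, at 0.962 and 0.925 in the treated libraries, against 0.896, 1.12 and 0.862 in the untreated ones. Etfdh, which hands the electrons to ubiquinone, measured 360.0 and 429.9 FPKM with the drug, against 485, 134 and 478 FPKM without it. Etfb shares 53.0% of its exon bases with Gm45233 on the same strand, for which no FPKM was given.

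The acyl-CoA thioesterases, which release free fatty acids from coenzyme A, differed among themselves in level and in spread. Acot13, a mitochondrial enzyme (chromosome 13, 24817948 to 24831540), measured 151 and 188 FPKM in the treated libraries, against 173, 100.4 and 182 FPKM in the untreated ones. Its means were 169.7 ± 25.9 FPKM (SD, n = 2) in treated and 152 ± 44.9 FPKM (SD, n = 3) in untreated tissue, a log2 fold change of 0.20 ± 0.33 (SE; adjusted p = 1 by limma). Acot11, known in mice as a cold-induced thioesterase of brown fat, measured 87.9 and 37.8 FPKM in treated 17 and treated 33/35, against 118, 7.91 and 115 FPKM in untreated 13, 14 and 15. Treated 17 was thus close to untreated 13 and 15, treated 33/35 well under them, and the highest library exceeded the lowest 14.9-fold. The log2 fold change of Acot11 was 0.26 ± 1.36 (SE; adjusted p = 1 by limma).

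Acot1 and Acot2 are neighbouring paralogs, and Acot1 was highest where Acot2 was lowest. Acot2, the mitochondrial form, measured 35.2 and 37.3 FPKM in the treated libraries, against 38.6, 16.6 and 45.2 FPKM in the untreated ones. Acot1, the cytosolic form, measured 6.49 and 6.31 FPKM with the drug, against 3.99, 15.0 and 6.17 FPKM without it. Among the thioesterases that are members, it alone had its highest value in untreated 14. Acot2 stood 5.42-fold and 5.91-fold above Acot1 in the treated libraries, against 9.68-fold, 1.11-fold and 7.33-fold in the untreated ones (exact two-sided permutation p = 1). The values of this pair are uncertain, since the longest coding transcripts share a run of 273 identical bases. It is shown because a read wholly within it matches both genes equally, and how such reads were assigned was not given. The run covers bases 907 to 1179 of the Acot1 transcript, whose coding part is 21 to 1277, and bases 1051 to 1323 of the Acot2 transcript, coding from 42 to 1400 (GENCODE M21). Of all 50-base windows of the Acot1 transcript, 23.7% occur unchanged in Acot2. The other isoform pairs examined (Cpt1a with Cpt1b, Acsl1 with Acsl5, Acsl1 with Acsl6 and Acsl3 with Acsl4) shared no window of 36 bases.
Acot1 and Acot2: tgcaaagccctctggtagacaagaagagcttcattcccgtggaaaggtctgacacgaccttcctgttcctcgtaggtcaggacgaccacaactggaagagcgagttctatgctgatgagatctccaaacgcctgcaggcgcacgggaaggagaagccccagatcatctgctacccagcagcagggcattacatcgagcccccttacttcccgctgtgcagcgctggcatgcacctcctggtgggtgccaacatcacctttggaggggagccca

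The promoter windows of the 2 paralogs differ, and they are shown because the values of the genes differed in untreated 14. Whether the windows bear on those values was not tested. They lie at chr12:84009252-84009551 for Acot1 and chr12:83987611-83987910 for Acot2, both on the plus strand (RefSeq, GRCm38.p6). The longest run they share at any offset on the same strand is 9 bases. Capitals mark a GC box (GGGCGG or its reverse complement CCGCCC), which occurs in the Acot1 window and not in the Acot2 window. It occurs in 35.7% of all windows.
Acot1: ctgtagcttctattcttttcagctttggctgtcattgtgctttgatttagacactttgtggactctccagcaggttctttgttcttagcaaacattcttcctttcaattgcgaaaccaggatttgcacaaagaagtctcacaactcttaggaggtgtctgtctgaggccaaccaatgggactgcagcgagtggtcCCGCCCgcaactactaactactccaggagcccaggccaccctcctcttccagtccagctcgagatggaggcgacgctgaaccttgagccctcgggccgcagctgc
Acot2: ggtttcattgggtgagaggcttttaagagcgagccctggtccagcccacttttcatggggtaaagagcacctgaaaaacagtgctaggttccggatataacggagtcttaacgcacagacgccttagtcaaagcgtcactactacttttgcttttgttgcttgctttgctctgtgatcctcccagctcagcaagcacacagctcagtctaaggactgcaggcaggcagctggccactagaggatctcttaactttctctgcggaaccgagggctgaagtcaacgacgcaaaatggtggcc
A match or its lack describes these letters only.

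Ratios between members, which do not depend on the overall level of the pathway, were compared between the groups for 14 pairs. For the 14 pairs the exact two-sided permutation p ranged from 0.2 to 1, and all adjusted p were 1. With 2 treated and 3 untreated libraries the smallest possible p is 0.1, so the test could not reach 0.05. It therefore cannot decide whether the ratios differ. Only Acads over Acadm did not overlap between the groups. The pairs that spread most over the libraries were Acot2 over Acot1, Acot11 over Acot13 and Acsl5 over Acsl1, apart from Acsl6 over Acsl1, whose ratio rests on Acsl6 values under 0.03 FPKM in untreated 13 and 15.

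**Figure D3:**
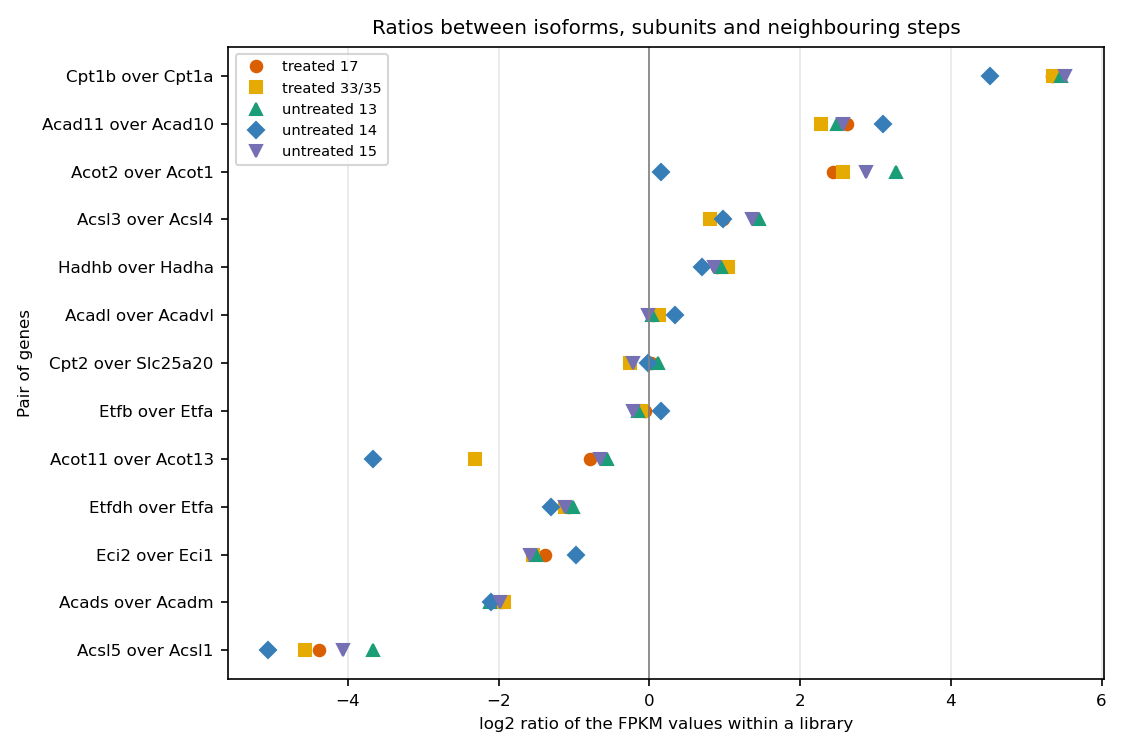
Ratios between 13 pairs of genes, as log2 of the FPKM ratio within each library, sorted by the median ratio. Each symbol is a library and 0 means equal FPKM. Cpt1b over Cpt1a lies between 4.52 and 5.51 and is lowest in untreated 14. Acot2 over Acot1 lies at 0.15 there and between 2.44 and 3.28 elsewhere. Acsl6 over Acsl1 is left out because of its near-zero values.

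The share of each step in the summed FPKM of the 34 genes overlapped between the groups for all but 2 of the 8 steps. Activation made up 5.04% and 4.52% in the treated libraries, against 5.14%, 6.26% and 5.11% in untreated 13, 14 and 15, and was lower in both treated libraries. Acyl-CoA dehydrogenases made up 25.0% and 26.1% in the treated libraries, against 25.5%, 23.5% and 25.1% in untreated 13, 14 and 15. The trifunctional protein made up 16.4% and 15.6%, against 15.8%, 16.6% and 16.5%, and electron transfer 14.8% and 15.6%, against 15.6%, 14.9% and 15.2%. The step of short-chain hydratase, hydroxyacyl-CoA dehydrogenase and thiolases was higher in both treated libraries, with 19.9% and 20.2%, against 19.5%, 16.2% and 19.7% in the untreated ones, where only untreated 14 was far from the rest. The share of the carnitine shuttle and supply genes was highest in untreated 14, with 10.6% and 10.03%, against 10.2%, 13.0% and 10.5%. Their summed FPKM was lowest there. For the 8 steps the exact two-sided permutation p of treated against untreated ranged from 0.4 to 1 (adjusted p = 0.914 or more).

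No member passed the test of treated against untreated tissue. With limma on log2(FPKM + 0.5) and Benjamini-Hochberg adjustment over all genes, 0 of 34 members rose and 0 fell at an adjusted p under 0.05, where 0.0444% of all tested genes were called (6 of 13527), and 1 member had an unadjusted p under 0.05. Means on the log2 scale were higher in treated tissue for 28 members and lower for 6, and the log2 fold changes had a median of 0.24 and a range from -0.49 (Acsl3) to 0.78 (Acsl6). Over all tested genes, 64.3% had higher means and the median was 0.06. When the libraries were centred on the adipocyte markers, the split turned to 6 members higher and 28 lower, with a median of -0.12, against -0.30 over all tested genes. The members with lower means were Acsl3, Acsl4, Acsl5, Cpt1a, Mlycd and Acot1.

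The direction of most members rested on untreated 14. Without that library 31 of 34 members had lower means in treated tissue and 3 had higher ones (Acsl4, Acsl6 and Acot1). The median log2 fold change was -0.19, against 0.01 over all tested genes, of which 52.4% had higher means. The adipocyte markers turned in the same way. With all libraries 17 of 21 had higher means (median 0.23), and without untreated 14, 18 of 21 had lower ones (median -0.17). Again 0 members passed, with a smallest limma adjusted p of 0.107 for Acsl5, where 0.843% of all tested genes were called. In that fit 14.7% of members and 12.9% of all tested genes had an unadjusted p under 0.05. The log2 fold changes were -0.89 (SE 0.14) for Acsl5, -0.36 (SE 0.09) for Cpt2, -0.29 (SE 0.09) for Acsl1 and -1.01 (SE 0.42) for Acot11, with limma adjusted p of 0.107, 0.227, 0.327 and 0.431. Acsl6 was higher in treated tissue there, at 2.02 (SE 0.35, limma adjusted p of 0.136). With all libraries these 5 adjusted p were 1. Acsl3 hardly moved, with -0.47 (SE 0.17). Of the 31 tested muscle markers 30 rose in the same fit, and the drug cannot be told apart from muscle content in these 4 libraries.

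**Figure D4:**
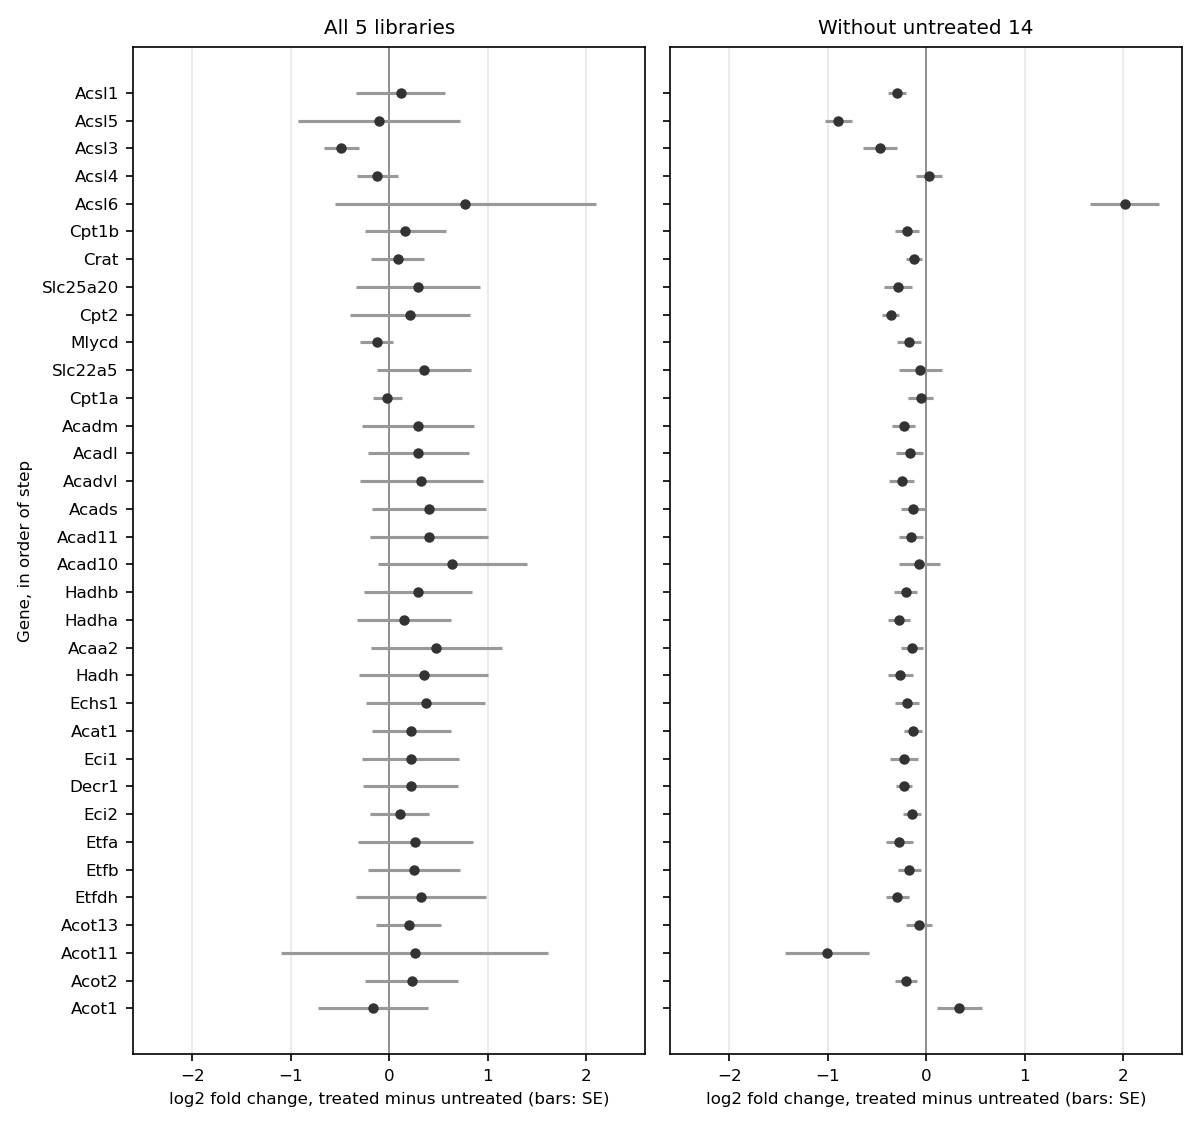
Log2 fold changes of the 34 genes, treated minus untreated, with all 5 libraries (left) and without untreated 14 (right). Points are limma estimates on log2(FPKM + 0.5), bars are standard errors and the grey line marks no difference. With all libraries 28 points lie right of the line with wide bars. Without untreated 14, 31 lie left of it with narrower bars, and no gene passes an adjusted p of 0.05 in either panel.

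No other listed gene of fatty acid oxidation and no listed regulator passed the test either. Of 48 further pathway genes listed, 46 were matched and 39 tested. Among these 39, 33 had higher and 6 lower means in treated tissue, the median log2 fold change was 0.20, and 0 rose and 0 fell at a limma adjusted p under 0.05 (0 with an unadjusted p under 0.05). Without untreated 14 their median was -0.12, and again 0 passed, with 30.8% at an unadjusted p under 0.05, against 12.9% of all tested genes. The smallest limma adjusted p there, 0.0584, belonged to Bdh1 (log2 fold change 2.47). Bdh1 measured only 0.248 and 0.119 FPKM in untreated 13 and 15, and 21.8 FPKM in untreated 14, the library highest in muscle markers. With all libraries the smallest p belonged to Eci3, an isomerase, with 8.11 and 11.7 FPKM in treated and 6.32, 2.26 and 8.36 FPKM in untreated tissue (log2 fold change 0.90, SE 0.56). It was followed by the dehydrogenase Acad12 (0.35, SE 0.31), by Echdc2 (0.17, SE 0.16) and by Ivd of leucine breakdown (0.15, SE 0.17), and the groups of all 4 overlapped. Without untreated 14 these log2 fold changes were 0.40 for Eci3, 0.088 for Acad12, 0.13 for Echdc2 and 0.085 for Ivd. Of 20 regulators, 12 had higher and 8 lower means, the median was 0.03, 0 passed with limma and 0 had an unadjusted p under 0.05. Their share of higher means, 60%, was under the 64.3% of all tested genes. Without untreated 14, 9 were higher and 11 lower, the median was -0.16, 0 passed with limma and 15% had an unadjusted p under 0.05, against 12.9% of all tested genes.

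Among the 20 regulators, 3 lay below and 1 above in both treated libraries, that is 15% and 5%, where 3.18% of all tested genes lay below and 5.5% above, so the share above is near the background. Prkab1, a subunit of the energy sensor AMPK, measured 25.8 and 21.8 FPKM in treated tissue, against 20.9, 8.73 and 21.3 FPKM in untreated tissue. Klf15, a transcription factor of nutrient use, had a log2 fold change of -0.80 (SE 0.35), Ppargc1a, a coactivator of mitochondrial genes, -0.37 (SE 0.18) and Esrrg, an oestrogen-related receptor, -0.24 (SE 0.14), each with a limma adjusted p of 1. Ppara, the nuclear receptor that drives fatty acid oxidation genes, measured 80.5 and 106 FPKM in the treated libraries, against 106, 18.7 and 112 FPKM in untreated 13, 14 and 15. Like the summed pathway, its treated values lay above untreated 14 and below untreated 13 and 15. Treated 33/35 was only just below untreated 13 (105.89 against 106.07 FPKM). This order of the libraries was not particular to Ppara. Pparg measured 125 and 157 FPKM, against 197, 33.5 and 160 FPKM, and Ppargc1b 20.7 and 27.1 FPKM, against 28.2, 4.78 and 29.3 FPKM. Other regulators, such as Rxra and Klf15, were highest in untreated 14. The binding motif of Ppara was searched in the windows of 28 members as the direct repeat AGGTCANAGGTCA on both strands. It occurred in 0 of the 32 member windows and in 0.0396% of all windows, and the relaxed form AGGNCANAGGNCA in 0 and 0.381%. No match says only that these letters are not within these 300-base windows. Cpt1b, Acaa2, Acat1, Acot13, Crat and Decr1 had no window and were not searched.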

How the data were processed

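Libraries were prepared from total RNA of whole brown adipose tissue with an Illumina kit, as the labels' protocols state. The authors deposited a table of FPKM values for each sample, per the file headers. The submitters' processing notes name CASAVA 1.7 and GRCm38. Aligner, quantification program, annotation release and strand setting are not given in the sources used here. Symbols and coordinates came from GENCODE M21 (GRCm38), which held 44395 of 45320 identifiers, and promoter windows from RefSeq (GRCm38.p6).

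FPKM are not read counts, so no counting interval was given and limma was used on log2(FPKM + 0.5). Fold changes on that scale understate the change of low genes. Of all genes, the 13527 whose mean over the 5 libraries reached 1 FPKM were tested, with limma 3.58.1 in R 4.3.3, empirical Bayes moderation, a variance trend and 3 residual degrees of freedom. P-values were two-sided and adjusted over all tested genes by Benjamini-Hochberg, with 0.05 as the threshold. Ratios between genes and shares of steps were compared by an exact permutation test over libraries. The fit was tested on simulated data. Figures were drawn with matplotlib 3.10.9 under Python 3.11.15.

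The 34 members, the gene lists and the tests were chosen with earlier results of these data known. Full statistics were printed for the most abundant member of each of 8 steps and for the 4 members of smallest p, which were Acsl3, Acad10, Mlycd and Slc22a5. Acsl5, Acsl6, Cpt1a, Cpt2, Acot11, Ppara, Pparg, Ppargc1b, Rxra, Gm12224 and Dvl2 were given statistics or values after they had been seen. Among listed genes, Acsf3 and Nudt8 had no matching identifier. Exons of 14 members overlap another annotated gene, 4 of them on the same strand.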

Additional observations from a re-analysis of the deposited data

How the results depend on the processing

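No paired analysis was possible because the groups share no sample numbers. In each alternative run 0 of 34 members passed the threshold. The count of all genes passing it was 6, and 2 with a pseudocount of 0.1, 0 without a filter on low values, 92 when centred on the adipocyte markers, and 0 to 114 when a library was left out (114 without untreated 14, 8 without treated 33/35, 0 without each of the others). The cause was not tested. The median log2 fold change of the members was 0.24. It ranged from 0.19 to 0.27 under the other pseudocounts, filter, scalings and variance model, was -0.12 when centred on the adipocyte markers, where the median of all tested genes was -0.30, and ranged from -0.19 to 0.47 with a library left out. Centring on the adipocyte markers lowers all genes by a common amount, so that small positive fold changes turn. Among the 12 members with full statistics it turned 8: Acsl1 -0.25, Cpt1b -0.20, Acadm -0.069, Hadhb -0.071, Eci1 -0.15, Etfa -0.10, Acot13 -0.16 and Slc22a5 -0.0061.

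With a library left out, log2 fold changes ranged from -0.29 to 0.35 for Acsl1, -0.20 to 0.40 for Cpt1b, -0.23 to 0.57 for Acadm, -0.21 to 0.57 for Hadhb, -0.14 to 0.82 for Acaa2, -0.22 to 0.46 for Eci1, -0.27 to 0.55 for Etfa, -0.075 to 0.35 for Acot13, -0.069 to 1.03 for Acad10 and -0.058 to 0.69 for Slc22a5, the lowest in each case without untreated 14. Acsl3 kept its sign, from -0.68 to -0.29, as did Mlycd, from -0.24 to -0.017. Differences in log2 ratio between treated and untreated ranged from -0.14 to 0.36 for Cpt1b over Cpt1a, -0.61 to 0.088 for Acsl5 over Acsl1, -0.10 to 0.082 for Acadl over Acadvl, -0.23 to 0.078 for Eci2 over Eci1, -0.085 to 0.10 for Etfb over Etfa (0.0155 without treated 33/35), -0.019 to 0.13 for Etfdh over Etfa, -0.57 to 0.99 for Acot2 over Acot1, -0.94 to 0.84 for Acot11 over Acot13 (0.61 without untreated 13) and -0.22 to 0.055 for Cpt2 over Slc25a20. The other 5 ratios kept their sign. Where 1 treated library remained, it was assumed to vary like the untreated ones. Read totals were unknown, so the precision of low values such as Acsl6 could not be given.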

Other observations

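Further genes of the lists were picked after their values had been seen. Bdh1, Prkaa2 and Oxct1 departed from the common pattern and were highest in untreated 14, whereas Acaca was lowest there. Bdh1, a ketone body dehydrogenase, measured 2.70 and 3.95 FPKM in treated 17 and treated 33/35, against 0.248, 21.8 and 0.119 FPKM in untreated 13, 14 and 15. Prkaa2, a catalytic subunit of AMPK abundant in muscle, measured 21.3 and 10.1 FPKM in the treated libraries, against 5.97, 41.7 and 5.17 FPKM in the untreated ones. Oxct1, which activates ketone bodies for use, was also highest in untreated 14, with 136 and 164 FPKM in the treated libraries, against 156, 181 and 129 FPKM. Acaca, the acetyl-CoA carboxylase of fatty acid synthesis, spread like Acot11, with 303 and 139 FPKM in treated 17 and treated 33/35, against 384, 30.2 and 353 FPKM in untreated 13, 14 and 15.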
